A study of Caenorhabditis elegans with 6 samples.

Results

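The basement membrane genes of Caenorhabditis elegans were followed in embryos of the mutant strain yap-1(ys38) and of the wild-type strain N2. They are 10 genes: ost-1, emb-9, let-2, epi-1, lam-3, lam-1, lam-2, nid-1, cle-1 and unc-52, out of 17138 genes named on the array. Their probe sets were found by gene symbol in the platform annotation, which gave 20 probe sets. The group was selected on the strain difference of ost-1, whose brighter probe set had shown one of the clearest differences in these same arrays, and was filled with the other structural genes of the same matrix. The values between strains are therefore a description. No p-value is printed for a single member, and counts of calls are given only beside the same counts over all probe sets.

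A basement membrane is a thin sheet of extracellular matrix that lies under epithelia and around muscle, gonad and pharynx. It is built from a laminin polymer and a collagen IV network, with nidogen and the proteoglycan perlecan between them. In C. elegans, emb-9 and let-2 encode the chains of collagen IV. The laminin trimer joins lam-1 (the beta chain) and lam-2 (the gamma chain) with either epi-1 or lam-3 (alternative alpha chains). ost-1 encodes SPARC, a secreted protein that binds collagen IV and is needed for its normal deposition in the worm.

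Both groups were whole embryos obtained by bleaching egg-bearing adults, with 3 biological replicates a strain and 1 Affymetrix array a replicate. The yap-1 gene product is the nematode YAP, a transcriptional coactivator that Hippo signalling restrains, and ys38 is an allele whose lesion the labels do not describe. N2 carries no listed mutation, and neither group received a treatment. The stage of the embryos is not stated, and the mix of ages in each collection is unknown. The authors left wild type replicate 2 out of their own comparison because its values differed from those of the other N2 arrays. Strain differences below compare the 3 yap-1(ys38) arrays with wild type replicates 1 and 3, and wild type replicate 2 is described separately.

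Values are MAS5 signals, a probe set's brightness scaled so that every array has the same trimmed mean. The median signal was 124, 118 and 133 in yap-1(ys38) replicates 1, 2 and 3 and 123, 86.6 and 122 in wild type replicates 1, 2 and 3. The only yap-1 probe set read 371, 260.4 and 302 in yap-1(ys38), against 267, 443 and 555 in wild type replicates 1, 2 and 3, which overlap, so it does not check the genotype. egl-44, which encodes the TEAD partner of YAP, gave log2 differences of -0.24 (SE 0.21) and 0.63 (SE 0.22) at its probe sets. Markers of early embryos (10 of 10 tested) and of body wall muscle (12 of 12) were above the brightness filter. In whole embryos, fewer cells of a type and less RNA per cell cannot be told apart. The number of arrays limits the precision, and the standard error of a strain difference was 0.14 to 0.43 log2 over the basement membrane probe sets tested.

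Of the 20 probe sets, 18 passed the brightness filter, a geometric mean over the 6 arrays above 53.5, and every gene kept at least 1. Both probe sets that did not pass belong to cle-1, at geometric means of 40.6 and 24.0. The dimmest that passed was an unc-52 probe set at 87.9. Where a gene has several probe sets, they are numbered from the brightest. Signals of different probe sets are not compared with each other, because brightness also depends on the probes.

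**Figure D1:**
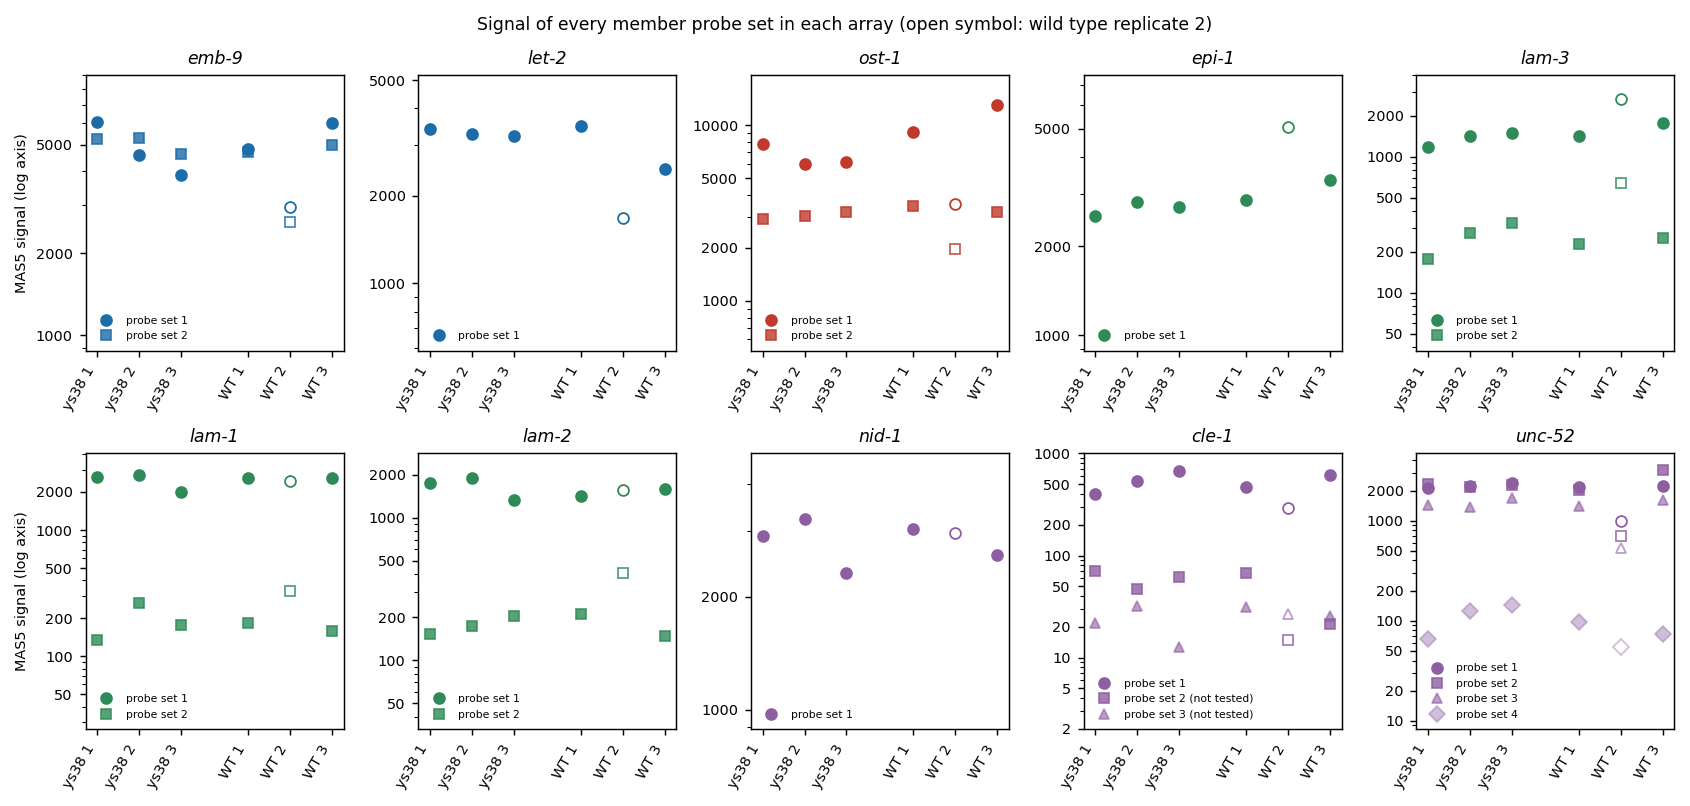
MAS5 signal (log axis) of all 20 probe sets in each array, 1 panel a gene, with yap-1(ys38) replicates at the left and wild type replicates at the right. Each symbol is 1 array and the open symbol is wild type replicate 2, which read lowest for ost-1, emb-9 and let-2 and highest for epi-1 and lam-3.

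ost-1, the SPARC gene, stood lower in yap-1(ys38) at its brighter probe set (171988_at). That probe set read 7847, 6037 and 6205 in yap-1(ys38) replicates 1, 2 and 3, against 9102 and 12988 in wild type replicates 1 and 3. All 3 mutant arrays lay below both wild-type arrays, and wild type replicate 3 alone was the highest of the 6. The log2 means were 12.70 ± 0.21 (SD, n = 3) in yap-1(ys38) and 13.41 ± 0.36 (SD, n = 2) in wild type, a log2 difference of -0.71 with a limma standard error of 0.19. This is a signal 0.612 times the wild-type one, and 1.03% of all tested probe sets had a lower log2 difference. The group was chosen by this difference, so that place among all probe sets is no support for it. The difference was -0.97 when wild type replicate 1 was left out, but -0.45 when replicate 3 was, so its size rests on wild type replicate 3.

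The other ost-1 probe set (191389_s_at) gave a much smaller difference. It read 2911, 3044 and 3182 in yap-1(ys38), against 3445 and 3183 in wild type replicates 1 and 3. The mutant arrays were again all below both wild-type arrays, but yap-1(ys38) replicate 3 and wild type replicate 3 were level. The log2 difference was -0.12 (SE 0.15), a signal 0.919 times the wild-type one. The probe sets of this 1 gene thus disagree in size, and the files do not say which part of the transcript each covers.

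Wild type replicate 2 turned the picture of ost-1. It read 3561 at the brighter probe set and 1979 at the other, below every other array at both. With it in the wild-type mean, the log2 differences became -0.17 and 0.13. Among same-numbered arrays the brighter probe set differed by -0.21, 0.76 and -1.07 for numbers 1, 2 and 3, so the mutant was lower in 2 pairs and higher in 1.

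Summed markers of several tissues had their highest and lowest arrays in common with ost-1. Summed over 12 body wall muscle markers, at the brightest probe set of each, the signal was 36538, 35491 and 42798 in yap-1(ys38), against 35881 and 48373 in wild type replicates 1 and 3 and 18260 in wild type replicate 2. The lowest of these marker readings was 173, for unc-22 in wild type replicate 2. The sum was highest in wild type replicate 3 and lowest in replicate 2, as ost-1 was at its brighter probe set, and 10 of the 12 markers lay lower in yap-1(ys38) (median log2 difference -0.19). The summed pharynx, intestine, epidermis and neuron markers also had their highest array in wild type replicate 3 and their lowest in replicate 2. For epidermis the top was nearly shared, at 60669 in wild type replicate 3 and 60593 in yap-1(ys38) replicate 1. Bright genes weigh most in a sum, and each list held tested markers that were highest in arrays other than wild type replicate 3. For muscle these were myo-3, unc-54, unc-27 and hnd-1, and for pharynx pha-4, ceh-22 and myo-2. For intestine they were elt-2, elt-7, ges-1 and end-1, and for neurons unc-64 and unc-119. For epidermis they were elt-1, elt-3, nhr-23, dpy-7 and sqt-3. The muscle markers hlh-1, unc-120 and hnd-1 were lowest in yap-1(ys38) arrays. Of the tested markers, 3 of 6 for pharynx, 6 of 7 for intestine, 5 of 7 for epidermis and 6 of 7 for neurons lay lower in yap-1(ys38). Their median log2 differences were small, at -0.10, -0.16, -0.05 and -0.12. Over all probe sets tested 48.8% lay lower, and among early embryo and maternal markers 1 of 10 did. The pattern was thus not particular to muscle, and it did not hold for every list or every marker. The 3-prime to 5-prime signal of 4 worm control transcripts, a measure of RNA integrity on a log2 scale, was 2.86, 3.00 and 3.07 in yap-1(ys38), against 2.68 and 3.74 in wild type replicates 1 and 3 and 3.64 in replicate 2. It was highest in wild type replicate 3, where ost-1 was also highest, and lowest in wild type replicate 1. In wild type replicate 2 it was close to replicate 3, whereas ost-1 was lowest there. The part of either in the ost-1 values was not tested.

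The collagen IV genes, which encode the network that SPARC binds, gave log2 differences between -0.18 and 0.16, each smaller than its standard error. emb-9 at its brighter probe set (173790_at) read 6044, 4608 and 3887 in yap-1(ys38), against 4849 and 6028 in wild type replicates 1 and 3. The strains overlapped, and the mutant arrays held both the highest and the lowest value (log2 difference -0.18, SE 0.21). At its other probe set (190353_s_at) emb-9 read 5264, 5315 and 4619 in yap-1(ys38), against 4704 and 4990 in wild type (0.06, SE 0.14). These values spanned a narrow range and overlapped too.

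let-2, which encodes the other collagen IV chain, read 3390, 3280 and 3204 in yap-1(ys38), against 3490 and 2469 in wild type replicates 1 and 3. The mutant arrays were close to each other and lay between the wild-type ones. The log2 difference was 0.16 (SE 0.18), with 0.41 when wild type replicate 1 was left out and -0.09 when replicate 3 was.

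Among the laminins, epi-1 and the brighter probe set of lam-3, both alpha chains, read slightly lower in yap-1(ys38). epi-1 (189605_at) read 2527, 2821 and 2710 in yap-1(ys38), against 2862 and 3364 in wild type replicates 1 and 3. All mutant arrays lay below both, and wild type replicate 2, at 5082, was higher still. The log2 difference was -0.21 (SE 0.16), and it ranged from -0.33 to -0.09 on leaving out any 1 array. epi-1 was the 1 tested member probe set whose mutant arrays lay below all 3 wild-type arrays, against 2.03% of all probe sets. It was lower in every same-numbered pair (-0.18, -0.85 and -0.31), as were 11% of all probe sets. Both statements use wild type replicate 2, the array set aside.

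lam-3 at its brighter probe set (182257_at) read 1187, 1417 and 1495 in yap-1(ys38), against 1423 and 1770 in wild type replicates 1 and 3 and 2674 in wild type replicate 2. The strains overlapped, since yap-1(ys38) replicate 3 exceeded wild type replicate 1. The log2 difference was -0.22 (SE 0.20), and the same-numbered pairs gave -0.26, -0.92 and -0.24. Its dim probe set (188440_at) read 177, 274 and 323 in yap-1(ys38), against 230 and 252 in wild type replicates 1 and 3, and gave 0.06 (SE 0.31), so it did not share the direction.

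For the beta and gamma chains, which the alternative laminins share, the log2 differences were smaller than their standard errors. lam-1 at its brighter probe set read 2623, 2723 and 1998 in yap-1(ys38), against 2565 and 2592 in wild type replicates 1 and 3 (-0.09, SE 0.19). Here yap-1(ys38) replicate 3 alone was low, and the rest were level. lam-2 at its brighter probe set read 1735, 1897 and 1323 in yap-1(ys38), against 1425 and 1582 in wild type (0.12, SE 0.21). The mutant arrays of lam-2 lay on both sides of the wild-type ones. The dim lam-1 probe set (189824_at) read 134.4, 266 and 178 in yap-1(ys38), against 184 and 159 in wild type replicates 1 and 3 (0.12, SE 0.35). The dim lam-2 probe set (187258_at) read 154, 174 and 205 in yap-1(ys38), against 209.7 and 148 in wild type (-0.002, SE 0.30). At this low signal the arrays of 1 strain differed from each other more than the strain means did.

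nid-1, the nidogen that bridges laminin and collagen IV, read 2906, 3222 and 2314 in yap-1(ys38), against 3023 and 2576 in wild type replicates 1 and 3. The log2 difference was -0.001 (SE 0.19). cle-1, a collagen XVIII that carries an endostatin domain, was tested only through a probe set listed under 2 gene records of that symbol. It read 397, 535 and 677 in yap-1(ys38), against 466 and 622 in wild type (-0.04, SE 0.28). Both genes overlapped fully between strains. The cle-1 probe sets under the filter read 12.8 to 70.1 in yap-1(ys38), against 14.9 to 67.8 over the wild-type arrays, and were not tested.

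unc-52 encodes perlecan, the proteoglycan that anchors body wall muscle to the basement membrane in the worm. Its brightest probe set (172932_x_at) read 2131, 2226 and 2403 in yap-1(ys38), against 2189 and 2219 in wild type replicates 1 and 3 (0.03, SE 0.16). These 5 arrays were nearly level. The next (174785_at) read 2346, 2155 and 2283 in yap-1(ys38), against 2032 and 3175 in wild type (-0.17, SE 0.21), where wild type replicate 3 alone was high. Without that array the difference was 0.15, and without replicate 1 it was -0.49. The third (193208_s_at) read 1437, 1356 and 1671 in yap-1(ys38), against 1390 and 1616 in wild type (-0.02, SE 0.19), so wild-type values lay inside the mutant range. The dimmest (194141_at), listed under 2 gene records, read 65.1, 125 and 145 in yap-1(ys38), against 97.2 and 74.2 in wild type. Its difference of 0.31 (SE 0.43) had the widest error of the tested members and ranged from 0.09 to 0.66 on leaving out any 1 array.

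**Figure D2:**
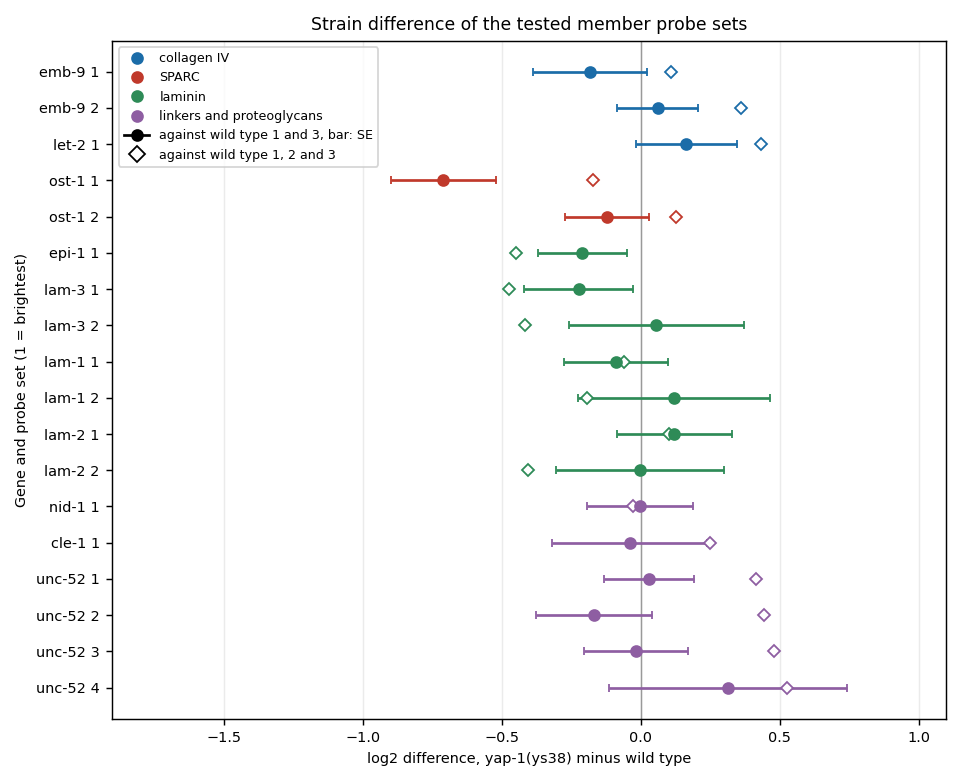
Log2 difference of each tested probe set, yap-1(ys38) minus wild type, with filled points against wild type replicates 1 and 3 (bar, limma standard error) and open diamonds against all 3 wild-type arrays. The brighter ost-1 probe set stands at -0.71, the other 17 lie between -0.22 and 0.31, and 7 diamonds lie on the other side of 0 from their filled points.

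Over the 18 tested probe sets, 11 lay lower and 7 higher in yap-1(ys38), with a median log2 difference of -0.01, against 0.01 over all 13529 probe sets tested. limma called 0 of the 18 at an adjusted p under 0.05, as it called 0% of all probe sets. At an unadjusted p under 0.05 there was 1, the ost-1 probe set by which the group was chosen, against 1.04% of all. The methods' t-test at its own threshold called 0 of the 18, against 1.49% of all. A limma fit blocked by replicate number called 0 of the 18, against 0.0887% of all probe sets. In that fit yap-1(ys38) replicate 2 has no partner and adds nothing, so it rests on 2 pairs. The mutant arrays lay below wild type replicates 1 and 3 at 3 of the 18 (both ost-1 probe sets and epi-1), against 4.92% of all, and above them at 0, against 5.9%. With all 3 wild-type arrays these counts were 1 below, against 2.03%, and 0 above, against 2.86%. Since the strain contrast chose ost-1, nothing is read from these counts.

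The same-numbered arrays gave a picture that changed with the number. Arrays with the same number deviate together across the tested probe sets, so differences within pairs are given here. The limma standard errors printed and the main counts of calls ignore this pairing, and only the blocked fit uses it. Of the 18 probe sets, 2 were lower in yap-1(ys38) in all 3 pairs (epi-1 and the brighter one of lam-3), near the 11% of all probe sets. Another 1, the third of unc-52, was higher in all 3 (0.05, 1.35 and 0.05), against 12.5% of all. The median difference over the 18 was -0.12 for number 1, 0.63 for number 2 and -0.06 for number 3, against -0.01, 0.04 and 0.02 over all probe sets tested. Number 2 has the largest median, and it is the pair that holds the wild-type array the study set aside.

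**Figure D3:**
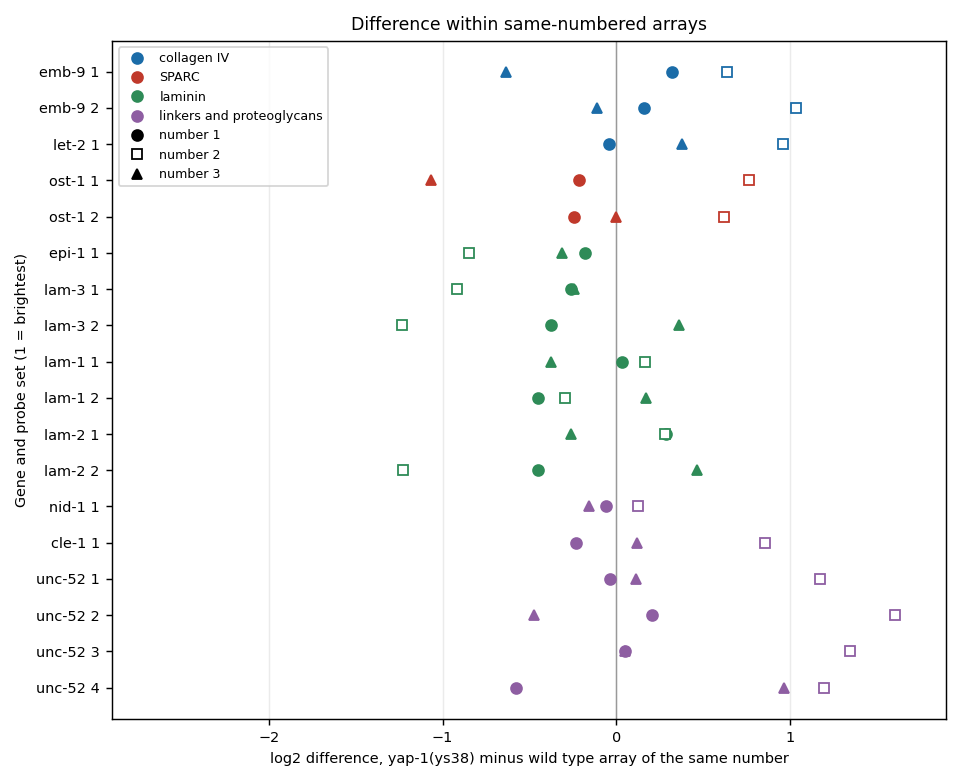
Log2 difference between arrays of the same number, yap-1(ys38) minus wild type, for each tested probe set, with filled circles for number 1, open squares for number 2 and filled triangles for number 3. Squares lie at 0.62 to 1.60 for collagen IV, ost-1, cle-1 and unc-52 and at -0.85 to -1.23 for the laminin alpha chains, away from most of the other symbols.

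In wild type replicate 2 the laminins and the collagen IV, SPARC and perlecan genes lay on opposite sides of the other wild-type arrays, with a few laminin probe sets and nid-1 near them. Its log2 signals, less the mean of the other wild-type arrays, ran from -1.84 to -0.64 at the 10 tested probe sets of collagen IV, SPARC, collagen XVIII and perlecan, and at all 10 it was the lowest of the 6 arrays. Among the 7 laminin probe sets it was the highest array at 5, and the difference ran from -0.09 to 1.42. Over all probe sets tested, wild type replicate 2 was the lowest array at 34.7% and the highest at 32.4%, so an extreme value there is common. It is 1 array, and no test was made. This division by gene was noticed after the values were seen.

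Single genes show the size of the split. unc-52 at its second probe set read 710 in wild type replicate 2, against 2032 and 3175 in replicates 1 and 3, a signal 0.279 times their geometric mean. ost-1 at its brighter probe set stood at 0.327 times theirs. The collagen IV genes stood at 0.548 and 0.535 times (emb-9) and 0.574 times (let-2, which read 1686). On the laminin side, epi-1 stood at 1.64 times and lam-3 at 1.68 and 2.68 times the signal of the other wild-type arrays. lam-1 and lam-2 stood at 0.942 and 1.04 times at their bright probe sets but at 1.91 and 2.31 times at their dim ones, so probe sets of each disagreed. nid-1, at 2952, stood level with the others at 1.06 times.

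**Figure D4:**
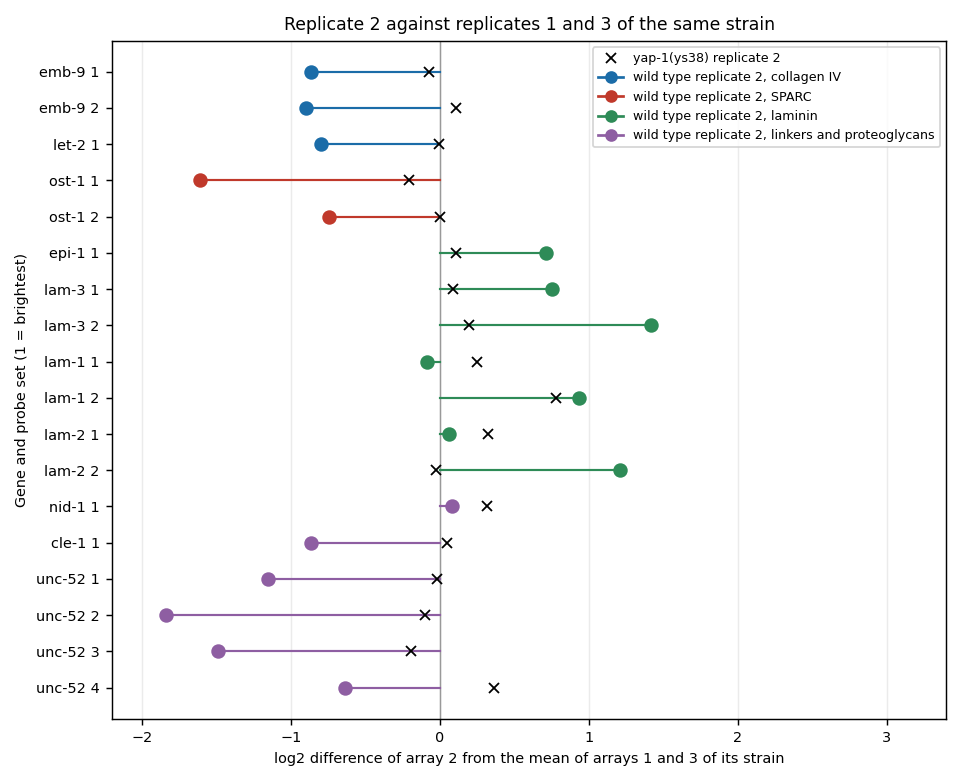
Log2 difference of replicate 2 from the mean of replicates 1 and 3 of its strain for each tested probe set, with crosses for yap-1(ys38) and filled points on stems for wild type. Wild-type points run from -1.84 at unc-52 to 1.42 at lam-3, whereas the crosses lie between -0.21 and 0.78.

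In yap-1(ys38), replicate 2 lay nearer its strain's other arrays. Its differences from the mean of yap-1(ys38) replicates 1 and 3 ran from -0.21 to 0.78, with a median size of 0.11 over the 18 probe sets, against 0.23 over all tested. In wild type the median size of the difference of replicate 2 was 0.87 over the 18, against 0.52 over all tested.

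Marker signals moved with this array. In wild type replicate 2 the median log2 difference from replicates 1 and 3 was -1.59 for body wall muscle markers (10 of 12 lower), -2.30 for pharynx (6 of 6 lower), -1.36 for neurons (6 of 7 lower) and -0.31 for epidermis (5 of 7 lower). For intestine it was -0.05 (5 of 7 lower). Early embryo and maternal markers stood higher, by 0.75 (9 of 10 higher), as did yolk genes, which adults express, by 3.94 (5 of 5 higher). The yolk value leans on low readings in wild type replicate 3, whose median log2 difference from replicate 1 was -5.8. For vit-2 the signal was 573 in wild type replicate 2, against 545 and 9.8 in replicates 1 and 3. The summed signal of the early and maternal markers was 24242, 31229 and 31833 in yap-1(ys38), against 26404, 38623 and 30610 in wild type replicates 1, 2 and 3. The summed pharynx signal was 8989, 8788 and 10498 in yap-1(ys38), against 9351, 4054 and 11905 in wild type replicates 1, 2 and 3. That of the yolk genes was 4500, 901 and 284 in yap-1(ys38), against 7058 and 12316 in wild type replicates 1 and 2, and in replicate 3 it was lower than in any other array. Yolk signal thus varied widely within both strains, whereas pharynx signal was low in 1 array. None of these markers was at 0 in any array. Their part in the basement membrane values was not tested.

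Scaling matters for this array, since its median signal was low. Centring all arrays on their median, an alternative added after the data were seen, raised wild type replicate 2 by 0.506 log2 against replicates 1 and 3. The 10 collagen IV, SPARC, collagen XVIII and perlecan probe sets then ran from -1.33 to -0.14 and the laminins from 0.42 to 1.92, with lam-1 now higher at its bright probe set. Among the 18, the array was then lowest at 7 and highest at 8, against 19.3% and 57.8% of all tested. After quantile normalization 17 of 18 kept their direction, the exception being the bright lam-2 probe set.

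Genes whose signal over the 6 arrays was most like that of the brighter ost-1 probe set were sought by Pearson correlation of log2 values. The 6 closest were Y82E9BR.3 (r = 0.991), sqt-3, a cuticle collagen whose other probe set is among the epidermis markers (0.988), ida-1, a protein tyrosine phosphatase-like protein of dense core vesicles (0.987), npr-2, a neuropeptide receptor family gene (0.987), Y25C1A.7 (0.983) and R02F2.7 (0.983). The first 2 varied little, from 17172 to 20362 for Y82E9BR.3 and from 18536 to 24730 for sqt-3, so their likeness is one of order and not of size. After quantile normalization Y82E9BR.3 (-0.66) and sqt-3 (0.27) no longer resembled it, whereas ida-1, npr-2 and Y25C1A.7 kept values of 0.975 or more. ida-1 read 165, 141 and 145 in yap-1(ys38), against 231 and 294 in wild type replicates 1 and 3 and 67.3 in replicate 2, the same order as ost-1 in its extremes.

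Within the group, the emb-9 and unc-52 probe sets closest to ost-1 had r = 0.888 and 0.872, and the other ost-1 probe set had 0.794. Of the 17 other tested probe sets 7 had a negative r, against 51.7% of all tested. These included the dim probe sets of lam-2 (-0.82) and lam-1 (-0.78), both of lam-3 (-0.53 and -0.78) and epi-1 (-0.53). The median r was 0.28 over the 17 other tested probe sets, against -0.04 over all tested. Same-numbered arrays deviate together and wild type replicate 2 lies apart, so the 6 arrays are not independent and these values only describe them.

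Other genes of the basement membrane, its receptors and its enzymes were taken from a list of 35, of which 34 were on the array and 31 were tested. limma called 0 of the 31 at an adjusted p under 0.05 and 0 at an unadjusted p under 0.05, with 12 lower and 19 higher in yap-1(ys38) and a median log2 difference of 0.04. The share of all probe sets at an unadjusted p under 0.05 was 1.04%. The methods' t-test called 1, ddr-1, before adjustment, against 1.49% of all probe sets, and 0 after it. At 3 of the 31 (ddr-1, col-99 and zmp-1) all mutant arrays lay above wild type replicates 1 and 3, against 5.9% of all probe sets, and at 0 did they lie below, against 4.92%.

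Among the receptors, 3 of the 11 tested lay lower and 8 higher. ddr-1, a discoidin domain receptor tyrosine kinase for collagen, read 227, 255 and 240 in yap-1(ys38), against 201 and 210 in wild type replicates 1 and 3 and 153 in replicate 2. Its log2 difference was small, at 0.23 (SE 0.25). lon-2, a glypican, gave -0.41 (SE 0.24) at its brightest probe set and -0.27 at the other. Leaving out wild type replicate 1 gave -0.71, and leaving out replicate 3 gave -0.10. dgn-2, of the dystroglycan family, gave 0.23 (SE 0.43), with 0.61 and -0.14 on leaving out the same arrays. The integrin genes pat-3 (0.13, SE 0.15), pat-2 (0.04, SE 0.21) and ina-1 (0.05, SE 0.20), singled out after their values were seen, lay closer to 0 at their brightest probe sets. The other pat-2 probe set gave 0.30 and so lay further from 0 than ddr-1 and dgn-2. Those of pat-3 and ina-1 gave 0.15 and 0.02.

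Among the other matrix proteins, 5 of the 11 tested lay lower and 6 higher. col-99, a transmembrane collagen, read 110, 73.4 and 88.7 in yap-1(ys38), against 38.5 and 70.7 in wild type replicates 1 and 3 and 34.9 in replicate 2. Some of these lie near or under the filter value, so the log2 difference of 0.78 (SE 0.43) is of uncertain size, and it was 0.34 without wild type replicate 1 and 1.22 without replicate 3. pxn-1, a peroxidasin, gave -0.44 (SE 0.40), with -0.88 and -0.01 on leaving out wild type replicates 1 and 3 in turn. fbl-1, the fibulin, gave -0.43 (SE 0.33), with -0.70 and -0.16 on leaving out those arrays in turn.

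Among the enzymes and inhibitors, 4 of the 9 tested lay lower and 5 higher. zmp-1, a matrix metalloproteinase, read 95.3, 144 and 121 in yap-1(ys38), against 73.7 and 88.8 in wild type replicates 1 and 3 and 59.6 in replicate 2 (0.55, SE 0.35). The mutant arrays lay above all 3 wild-type ones, at a low signal. The same held for ddr-1 and col-99, and for 2.86% of all probe sets. tmem-131, needed for collagen secretion in the worm, gave -0.16 (SE 0.18), with -0.40 and 0.09 on leaving out wild type replicates 1 and 3 in turn. dpy-18, a prolyl hydroxylase subunit that modifies collagens, gave 0.14 (SE 0.34). The other probe sets of tmem-131 gave -0.06 and 0.02, and those of dpy-18 -0.08 and 0.02, so neither gene kept 1 sign. dpy-18 also hung on the wild-type arrays, at 0.75 when replicate 1 was left out and -0.48 when replicate 3 was.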

How the data were processed

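Each deposited value is a linear probe set intensity that the authors computed with Microarray Suite (MAS 5.0) and scaled globally in Genplex 3.0, per the series' design text. Detection calls were not used here. After 77 control probe sets were removed, 22548 were left, and 13529 were tested, namely those above the 40th percentile of mean log2 intensity (a geometric mean of 53.5). limma 3.58.1 under R 4.3.3 fitted log2 values across these, with moderated variances that follow intensity and Benjamini-Hochberg adjusted p-values (threshold 0.05, two-sided). The procedure was tested on simulated arrays drawn independently, so that test does not cover the correlation between same-numbered arrays. Fits used all yap-1(ys38) arrays and wild type replicates 1 and 3, except where all 6 arrays are named. The number of arrays limits the precision. Alternatives were other scalings, filters, fits and arrays left out.

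Probe sets were named from the platform annotation. The symbols of all 20 member probe sets were in the RefSeq table of assembly WBcel235. 2 probe sets list 1 symbol under 2 gene records. Every member was named. Of the listed matrix genes, the 3 tested genes per group with the largest change at the brightest probe set were named, and the 6 genes most like ost-1. Members and lists were chosen with earlier results of these data known. Replicate numbers come from the sample titles. Deviations from the strain means correlated at 0.364, 0.345 and 0.445 between same-numbered arrays and at 0.015 or less between others. Deviations from a strain's own mean sum to 0, so positive values between same-numbered arrays push the others down. The low values between others are thus no separate evidence for pairing. Because the same-numbered values were positive, pair differences and the blocked fit pair arrays by number. The main fit and its standard errors do not. The labels call the replicates biological and do not say whether they were grown apart, so p-values measure only the spread between these arrays. Motifs in promoters were not analysed here.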

Additional observations from a re-analysis of the deposited data

How the results depend on the processing

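Of the tested member probe sets limma called 0 under each alternative, the replicate block included, and also on leaving out any 1 array (0 to 0), as did the methods' t-test. Over all probe sets the count was 0, with 12 under the replicate block, 202 for the methods' t-test before adjustment, and 0 to 3 on leaving out 1 array (3 without wild type replicate 1). Leaving out a wild-type array leaves 1, which is assumed to vary like the mutant arrays. The listed matrix genes gave 0, and 1 for the methods' t-test before adjustment. The median log2 difference of the tested members was -0.01. It was 0.10 with all 6 arrays, with or without the replicate block, -0.080 with the replicate block on the 5 arrays kept (2 pairs, since yap-1(ys38) replicate 2 then has no partner), and -0.080 to 0.019 on leaving out 1 array. The brighter ost-1 probe set gave -0.17 with all 6 arrays, with or without the block, and -0.97 to -0.45 on leaving out 1 array. The median difference of wild type replicate 2 from replicates 1 and 3 over the tested members was -0.69, -0.46 after quantile normalization and -0.19 after median centring, the last added after the data were seen. Of 252 other member values, 226 moved by less than the spread between replicates, 20 moved further with all 6 arrays and 6 on leaving out 1 array. Signs changed in 37, all but 5 of them with all 6 arrays or on leaving out 1 array. The causes were not tested. Probe sets near the filter intensity of 53.5 are the least certain.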
